A study of Homo sapiens with 8 samples.

Results

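The genes described here are the nuclear-encoded subunits of the oxidative phosphorylation (OXPHOS) system, the 5 enzyme complexes of the inner mitochondrial membrane. Members were the protein-coding genes of the deposited count table whose symbols follow the NDUFA, NDUFB, NDUFC, NDUFS, NDUFV, SDH, UQCR, CYC1, COX5 to COX8 or ATP5 naming patterns, with the NDUFAF assembly factors left out. This gave 89 of the 58302 genes in the table: 38 in complex I, 4 in complex II, 10 in complex III, 17 in complex IV and 20 in complex V. NDUFA4 and its paralog NDUFA4L2 were placed with complex IV, since the NDUFA4 protein is a cytochrome c oxidase subunit. The rule rested on symbols and used no measured value, but the members were chosen with earlier results of these data known. COX4I1 and COX4I2, which encode the alternative forms of complex IV subunit 4, fall outside the symbol pattern and are given separately.

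Complexes I and II pass electrons from NADH and succinate to ubiquinone, complex III passes them on to cytochrome c, and complex IV (cytochrome c oxidase) hands them to oxygen. Complexes I, III and IV pump protons as they do so, and complex V (ATP synthase) uses the returning protons to make ATP. Complexes I, III, IV and V each also hold membrane subunits encoded by mitochondrial DNA (mtDNA), so these complexes draw on both genomes.

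The study set out to learn how the TRMT6/TRMT61A methyltransferase, which places N1-methyladenosine (m1A) on tRNA, acts on senescence of colorectal cancer cells. RNA sequencing compared DLD1 cells, an established human colon adenocarcinoma line, that overexpressed wild-type TRMT6 and TRMT61A (OE-WT) with DLD1 cells that carried the empty vector (CTRL). Both groups were made by lentiviral transduction, both were stable lines, and whether either was a single clone was not given in the sources used here. Each group had 2 libraries of 10327498 to 12379671 counts. Whether the libraries of a group came from separate cultures is given only as duplicate culture in the labels, so p-values measure the spread between these libraries.

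The introduced genes matched the labels. TRMT6 was at 211 and 181 CPM (counts normalised to library size with TMM scaling factors) in OE-WT and at 52.6 and 55.4 CPM in CTRL, a log2 fold change of 1.86 ± 0.08 (SE). TRMT61A was at 138 and 130.4 CPM in OE-WT against 58.9 and 56.8 CPM in CTRL, a log2 fold change of 1.21 ± 0.07. Of 11 colon epithelium markers, 10 passed the filter on low counts, and their summed level was 12208 and 12553 CPM in OE-WT and 11214 and 11010.6 CPM in CTRL. The sum was carried by the keratins KRT8 and KRT18, which rose by 0.25 and 0.30 on the log2 scale, while KRT20, CDH17, CDH1 and KRT19 fell by 1.52, 0.45, 0.29 and 0.19 and the other 4 did not pass. The part of these marker changes in the results below was not tested. Fibroblast markers summed to at most 3.22 CPM in any library and leukocyte and endothelial markers to at most 2.41 CPM, with COL1A2, COL3A1, DCN and CD3E at 0 counts in all 4 libraries.

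Of the 89 members, 78 passed the filter and were tested with edgeR's quasi-likelihood test across 14133 genes. At an adjusted p below 0.05, 14 members fell in OE-WT and 4 rose, while 60 did not pass. Over all genes tested, 11.6% fell and 9.44% rose by the same rule. In bulk RNA, fewer cells with a transcript and less of it per cell cannot be told apart. The median log2 fold change of the members was -0.02, beside 0.01 for all genes tested. No member passed the study's own thresholds, an unadjusted p below 0.05 with an absolute log2 fold change above 1, which 3.15% of all genes did. The members that fell were unevenly spread over the complexes: 8 belonged to complex IV, 3 to complex I, 2 to complex V, 1 to complex II and 0 to complex III. Without CTRL library 1, 8 members fell and 2 rose, and DESeq2 called 9 lower and 0 higher. With library sizes alone in place of the scaling factors, which moved the median of all genes to -0.08, 21 members fell and 0 rose.

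**Figure D1:**
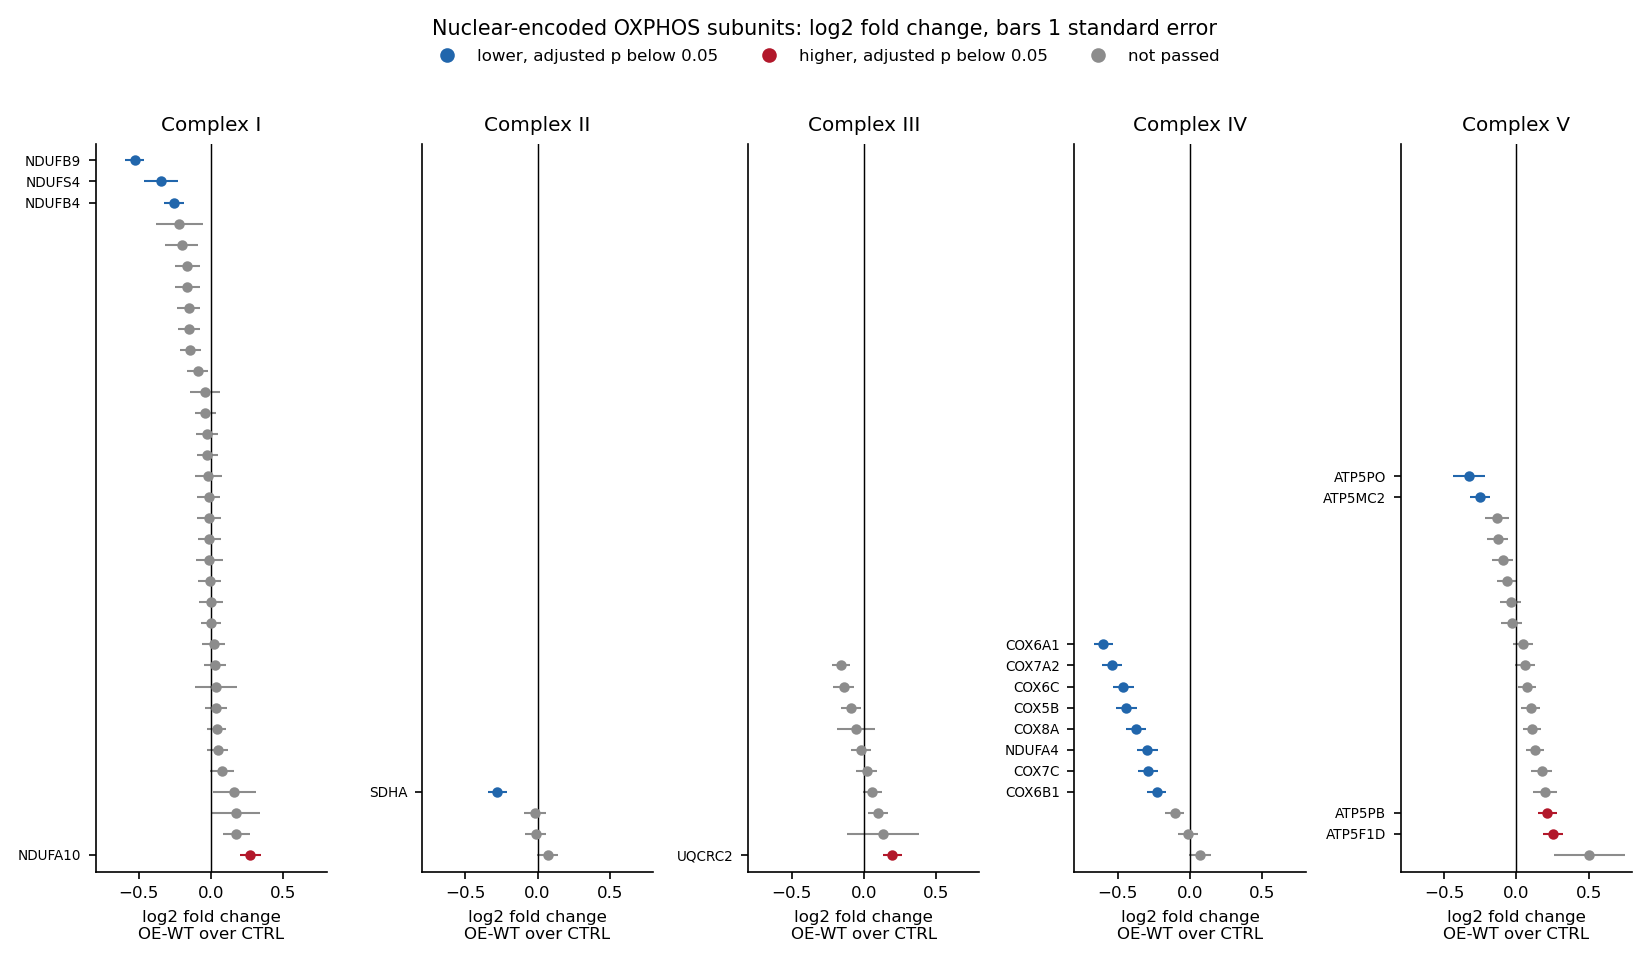
Log2 fold change of OE-WT over CTRL (x axis) for each of the 78 tested members, in 1 panel per complex, with bars of 1 standard error; blue marks members that fell and red those that rose (adjusted p below 0.05), which are named, and grey those that did not pass. Complex IV holds 8 of the 14 blue points, from -0.23 for COX6B1 to -0.60 for COX6A1, and no red point.

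Complex IV was the complex in which most tested members moved, and they moved down. Of its 11 tested members, 8 fell, 0 rose and 3 did not pass; the median log2 fold change was -0.30. In 9 of the 11, both OE-WT libraries lay below both CTRL libraries, which held for 30.2% of all genes tested. Without CTRL library 1, 5 of the 11 fell.

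The largest fall was in COX6A1 (chr12:120438090-120440737, GRCh38), the widely expressed form of subunit 6a. COX6A1 was at 308 and 321 CPM in OE-WT and at 495 and 457 CPM in CTRL. The groups did not overlap, and the log2 fold change was -0.60 ± 0.07 (SE; adjusted p = 1.42e-06, edgeR's quasi-likelihood test). COX7A2 (chr6:75237675-75250323), the non-muscle form of subunit 7a, stood at 208 and 222 CPM in OE-WT against 334 and 291 CPM in CTRL. Both OE-WT libraries were again below both CTRL libraries, and COX7A2 changed by -0.54 ± 0.07 on the log2 scale (adjusted p = 1.52e-05 by the same test).

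COX6C (chr8:99873200-99893707), which encodes a small single-helix subunit, was at 105 and 117 CPM in OE-WT and 159 and 147 CPM in CTRL, a log2 change of -0.46 ± 0.07. COX5B (chr2:97646062-97648383), which encodes a zinc-binding subunit on the matrix side, had 142 and 156 CPM in OE-WT and 214 and 189.7 CPM in CTRL, a log2 change of -0.44 ± 0.07. COX8A (chr11:63974620-63976543), the widely expressed form of subunit 8, had 143 and 145 CPM in OE-WT and 196 and 177 CPM in CTRL, a log2 change of -0.37 ± 0.07. For these 3 genes the groups did not overlap, and the adjusted p ranged from 8.56e-05 for COX6C to 0.000425 for COX8A. In each of COX6A1, COX7A2, COX5B and COX8A, CTRL library 1 was the highest of the 4, and the 2 OE-WT libraries lay closer together than the 2 CTRL libraries.

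Smaller falls were seen in NDUFA4, COX7C and COX6B1. NDUFA4 (chr7:10931943-10940153) was at 205 and 227 CPM in OE-WT and 278 and 253 CPM in CTRL (log2 change -0.30 ± 0.07, adjusted p = 0.00447 by edgeR's quasi-likelihood test). COX7C (chr5:86617928-86620962), which encodes another small membrane subunit, was at 249 and 254 CPM in OE-WT and 326 and 289 CPM in CTRL (log2 change -0.29 ± 0.07, adjusted p = 0.00429 by edgeR's quasi-likelihood test). COX6B1 (chr19:35648323-35658782), whose protein faces the intermembrane space where cytochrome c docks, was at 148 CPM in both OE-WT libraries and at 179 and 168 CPM in CTRL (log2 change -0.23 ± 0.07, adjusted p = 0.0143 by edgeR's quasi-likelihood test). These 3 calls depended on CTRL library 1: without it, the log2 changes were -0.22, -0.20 and -0.19 and the adjusted p 0.0589, 0.100 and 0.147. NDUFA4 also lost its call without OE-WT library 1 (-0.22, adjusted p = 0.0640), and COX6B1 lost it in DESeq2 (adjusted p = 0.0720).

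COX4I1 (chr16:85798633-85807068), which is no member by its symbol and encodes the regulatory subunit 4, stood at 336 and 372 CPM in OE-WT and at 455 and 454 CPM in CTRL. It fell by 0.36 ± 0.07 on the log2 scale (adjusted p = 0.000504, edgeR's quasi-likelihood test), with no overlap between groups. With COX4I1 counted in, 9 of 12 tested nuclear genes of complex IV fell.

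The 3 members of complex IV that did not pass were COX5A, COX7A2L and COX7B. COX5A, which binds near the matrix face beside COX4I1, was at 116 and 123 CPM in OE-WT and 130.0 and 127 CPM in CTRL, and its log2 change was -0.11 (95% interval -0.24 to 0.02). COX7A2L, a COX7A relative that takes part in joining complexes into supercomplexes, was at 110.2 and 113 CPM in OE-WT and 116 and 108 CPM in CTRL, and its log2 change was -0.01 (-0.15 to 0.12). COX7B was at 88.2 and 87.0 CPM in OE-WT and 89.0 and 78.1 CPM in CTRL, and its log2 change was 0.07 (-0.08 to 0.21). The intervals of COX7A2L and COX7B lay above the estimates of the 8 members that fell.

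**Figure D2:**
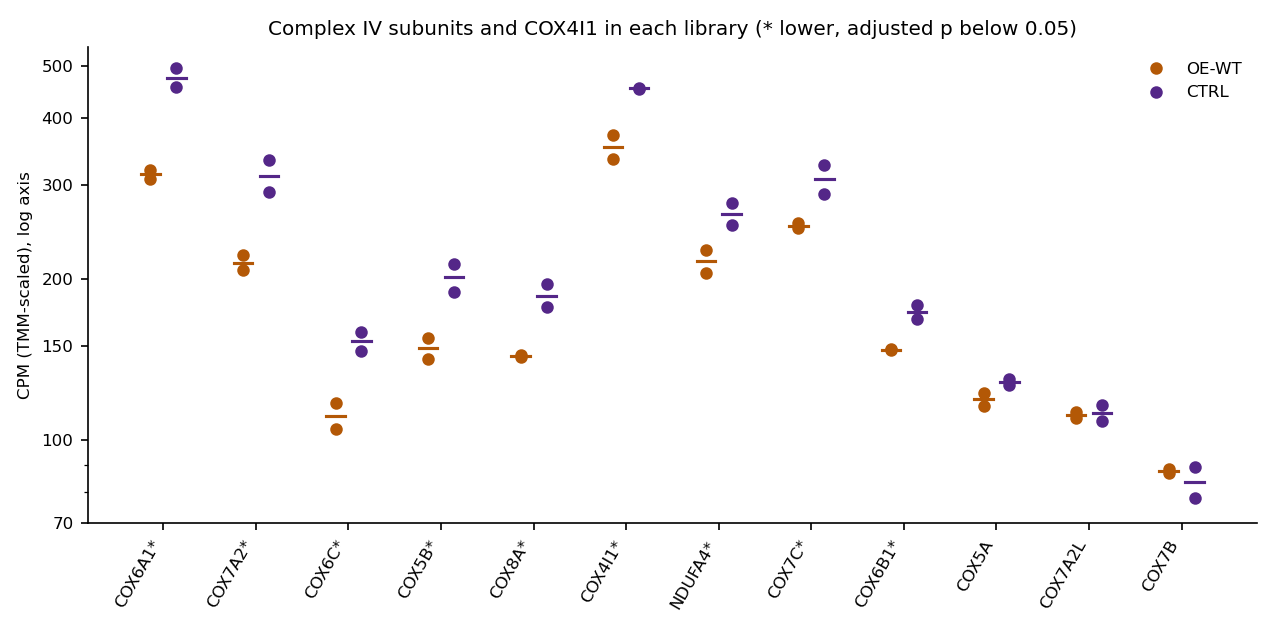
CPM (y axis, log scale) of the 11 tested complex IV members and COX4I1 in each library, with OE-WT in orange and CTRL in purple; points are libraries, bars are group means and asterisks mark genes lower at an adjusted p below 0.05. The OE-WT points lie below the CTRL points in 10 of the 12 genes and overlap them in COX7A2L and COX7B.

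Levels can be compared between genes only per length. Per kilobase of all annotated exons, the most abundant members in CTRL were COX8A at 377 ± 26.2 CPM per kilobase (SD, n = 2), COX6A1 at 356 ± 20.1 and ATP5F1B, the catalytic beta subunit of ATP synthase, at 291 ± 3.84. In OE-WT the same 3 genes were at 291 ± 2.17, 235 ± 6.71 and 313 ± 0.582 CPM per kilobase, and ATP5F1B stood first. Per kilobase of the MANE Select transcript, the one transcript per gene chosen jointly by RefSeq and Ensembl, COX6A1 was first in both groups, with 887 CPM per kilobase in CTRL and 585 in OE-WT. On that scale the tested complex IV members had a median of 292 CPM per kilobase in CTRL and 216 in OE-WT, and those of complex V had 133 in both groups.

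Several complex IV subunits have a second gene whose use is restricted to other tissues, and these second genes carried almost no counts in DLD1 cells. COX6A2 and COX7B2 had 0 counts in all 4 libraries, which allows up to 0.302 CPM in the smallest scaled library. COX7A1 and COX4I2 were each at 0 in 3 libraries and had 2 and 1 counts in CTRL library 2, COX8C had at most 2 counts, and COX6B2 had 3 counts in each OE-WT library and 6 in each CTRL library. For NDUFA4L2, a hypoxia-responsive relative of NDUFA4, OE-WT gave 3 and 5 counts and CTRL 10 and 9. The partner that was expressed took nearly all of each pair in every library when levels were set per kilobase of the MANE Select transcript. The lowest share was 99.38%, that of NDUFA4 in CTRL library 2. In no pair were the counts of the second gene higher in both OE-WT libraries than in both CTRL libraries.

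The promoters of the 8 complex IV members that fell were examined for 3 motifs known from promoters of OXPHOS genes, using RefSeq windows (GRCh38.p14) from 250 bases before to 50 bases after the transcription start. Windows were found for 69 of the 89 members and for 6 of these 8, NDUFA4 and COX6C having none. The ETS core (CCGGAAG on either strand), which the factor NRF2/GABP reads, was in 4 of the 6 windows, those of COX5B, COX6A1, COX6B1 and COX8A, and not in those of COX7A2 and COX7C. It was in 20 of the 69 member windows (29.0%) and in 14.9% of 15072 protein-coding windows. Over all complexes, it was in 4 of 11 windows of members that fell (36.4%) and in 15 of 51 of tested members that did not (29.4%). The NRF1 motif (GCGC and TGCGC with 1 base of any kind between them, on either strand) was in 0 of the 6 windows, in 24.6% of member windows and in 8.92% of all windows. Over all complexes, 3 of 11 windows of members that fell held it (27.3%), and 13 of 51 of tested members that did not (25.5%). The YY1 core (AAGATGG on either strand) was in 1 of the 6, that of COX7C, in 26.1% of member windows and in 6.61% of all windows. Over all complexes, 3 of 11 windows of members that fell held it (27.3%), and 14 of 51 of tested members that did not (27.5%). The ETS and YY1 cores share the letters AAG, so that 1 stretch can hold both. The 80 bases upstream of the start are shown for the 3 genes whose ETS core lies wholly upstream of every annotated start of the gene, on the plus strand at chr2:97645982-97646061, chr19:35648243-35648322 and chr11:63974540-63974619, with the ETS core in capitals in either orientation.
COX5B: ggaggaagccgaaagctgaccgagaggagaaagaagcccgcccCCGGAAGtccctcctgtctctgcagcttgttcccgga
COX6B1: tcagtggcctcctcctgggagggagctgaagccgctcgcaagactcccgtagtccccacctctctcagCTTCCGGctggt
COX8A: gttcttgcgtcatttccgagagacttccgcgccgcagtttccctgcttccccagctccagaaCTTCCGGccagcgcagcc

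Complex I, the NADH dehydrogenase, showed little movement beyond a few accessory subunits. Of its 34 tested members, 3 fell, 1 rose and 30 did not pass, with a median log2 fold change of -0.02. NDUFB9 (chr8:124539101-124580648), an accessory subunit of the membrane arm, was at 280.5 and 288 CPM in OE-WT and at 410.0 and 412 CPM in CTRL. The gap between groups was far wider than that within them, and NDUFB9 fell by 0.53 ± 0.06 on the log2 scale (adjusted p = 3.81e-06, edgeR's quasi-likelihood test).

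NDUFS4 (chr5:53560633-53683338), an accessory subunit needed for a late step of complex I assembly, was at 18.2 and 20.8 CPM in OE-WT and 23.1 and 26.7 CPM in CTRL (log2 change -0.35 ± 0.12, adjusted p = 0.0374 by edgeR's quasi-likelihood test). NDUFB4 (chr3:120596328-120602507), another membrane arm subunit, was at 98.4 and 103 CPM in OE-WT and 127 and 114 CPM in CTRL (log2 change -0.26 ± 0.07, adjusted p = 0.0129 by edgeR's quasi-likelihood test). The member that rose was NDUFA10 (chr2:239892450-240025743), an accessory subunit with a nucleoside kinase fold, at 73.2 and 72.9 CPM in OE-WT and 61.2 and 60.1 CPM in CTRL (log2 change 0.27 ± 0.07, adjusted p = 0.0104 by edgeR's quasi-likelihood test). The groups did not overlap for any of the 3. NDUFS4 lost its call without OE-WT library 1 or CTRL library 2 (adjusted p 0.255 and 0.264), NDUFB4 without OE-WT library 1 or CTRL library 1 (0.0792 and 0.191), and NDUFA10 in DESeq2 (0.0974), with library sizes alone (0.136) and with the trend on GC content (0.0544) or exon length (0.132) removed from the counts. Its log2 change was 0.16 with the length trend removed.

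The 11 NDUFB genes, whose proteins belong to the membrane arm, summed to 878 and 910.2 CPM in OE-WT and 1099 and 1034 CPM in CTRL. NDUFB9 alone held 280.5 and 288 CPM of these sums in OE-WT and 410.0 and 412 CPM in CTRL, and so carried much of the difference. In 9 of these 11 genes the log2 change was below 0 and 2 of them fell, with a median of -0.14. The NDUFA genes of complex I, NDUFAB1 included, summed to 650.4 ± 4.58 CPM in OE-WT and 651 ± 32.9 CPM in CTRL.

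In complex II, succinate dehydrogenase, SDHA fell and the other 3 subunits did not pass. SDHA (chr5:218303-257082), the flavoprotein that oxidises succinate, was at 129 and 130.0 CPM in OE-WT and 153 and 162 CPM in CTRL. The groups did not overlap, and the log2 fold change was -0.28 ± 0.07 (adjusted p = 0.00442, edgeR's quasi-likelihood test), a call kept in all 15 processing alternatives. SDHB, the iron-sulfur subunit, had a log2 change of -0.01 (95% interval -0.15 to 0.13). The membrane anchors SDHC and SDHD had log2 changes of 0.07 (-0.07 to 0.21) and -0.02 (-0.16 to 0.13). In SDHB, SDHC and SDHD the libraries of the groups overlapped.

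In complex III, the cytochrome bc1 complex, 10 members were tested, 1 rose and 9 did not pass, with a median log2 fold change of 0.00. UQCRC2 (chr16:21953288-21983660), a core protein on the matrix side, was at 123 and 128 CPM in OE-WT and 111 and 108 CPM in CTRL, with no overlap. Its log2 change was 0.20 ± 0.07 (adjusted p = 0.0389, edgeR's quasi-likelihood test), and the call was lost when any 1 of the 4 libraries was left out, with an adjusted p of 0.0534 without OE-WT library 1, 0.191 without OE-WT library 2, 0.102 without CTRL library 1 and 0.151 without CTRL library 2. With the GC trend removed, the log2 change of UQCRC2 was 0.059 (adjusted p = 0.612 by the same edgeR test), and with library sizes alone it was 0.11 (0.395). The lowest value was that of CYC1, the cytochrome c1 subunit, at 122 and 121 CPM in OE-WT and 136 CPM in both CTRL libraries. CYC1 did not pass (log2 change -0.16, 95% interval -0.29 to -0.03, adjusted p = 0.0926 by edgeR's quasi-likelihood test), although its groups did not overlap, and with library sizes alone it was called lower (-0.25, adjusted p = 0.0227).

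Complex V, the ATP synthase, had members moving in both directions. Of 19 tested members, 2 rose, 2 fell and 15 did not pass, and the median log2 fold change was 0.06. In 11 of the 19, both OE-WT libraries lay above both CTRL libraries, which held for 29.9% of all genes tested. ATP5F1D (chr19:1241746-1244825), a subunit of the rotating central stalk, was at 107 and 104 CPM in OE-WT and 86.5 and 90.2 CPM in CTRL (log2 change 0.25 ± 0.07, adjusted p = 0.0114 by edgeR's quasi-likelihood test). ATP5PB (chr1:111448864-111462773), the b subunit of the peripheral stalk, was at 177 and 167 CPM in OE-WT and 149.9 and 146 CPM in CTRL (log2 change 0.21 ± 0.07, adjusted p = 0.0229 by edgeR's quasi-likelihood test). For both genes the 2 OE-WT libraries were above the 2 CTRL libraries. Neither call was kept without OE-WT library 1 (adjusted p 0.0578 and 0.150) or CTRL library 1 (0.0966 and 0.0590), and ATP5PB was also lost without CTRL library 2 (0.104). With the GC trend removed, the log2 change was 0.10 for ATP5PB (adjusted p = 0.302) and 0.46 for ATP5F1D, and with library sizes alone it was 0.12 and 0.16 (0.311 and 0.173).

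ATP5PO (chr21:33903453-33915814), the peripheral stalk subunit known as OSCP, was at 18.8 and 19.1 CPM in OE-WT and 23.0 and 24.5 CPM in CTRL (log2 change -0.33 ± 0.11, adjusted p = 0.0404 by edgeR's quasi-likelihood test). Its groups did not overlap, but the call was lost when any 1 library was left out, with an adjusted p of 0.145 and 0.0904 without OE-WT library 1 or 2 and of 0.0680 and 0.184 without CTRL library 1 or 2. The highest log2 value of complex V, 0.50 ± 0.24, was that of ATP5MF-PTCD1, a read-through transcript at 4.53 and 3.93 CPM in OE-WT and 2.72 and 3.25 CPM in CTRL, and it did not pass (adjusted p = 0.153).

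Subunit c, the ring of the rotor, is made from 3 genes whose mature proteins are the same, and the genes did not move together. ATP5MC2 (chr12:53632726-53677408) was at 83.6 and 81.4 CPM in OE-WT and 98.9 and 97.7 CPM in CTRL, and it fell by 0.25 ± 0.07 on the log2 scale (adjusted p = 0.0111, edgeR's quasi-likelihood test; 0.0569 without CTRL library 1). ATP5MC1 did not pass, with a log2 change of -0.07 (95% interval -0.20 to 0.07), nor did ATP5MC3, with 0.13 (0.00 to 0.25). Per kilobase of all annotated exons, ATP5MC2 made up 17.4% ± 0.0490 of the trio in OE-WT and 20.6% ± 0.366 in CTRL (SD, n = 2), and ATP5MC3 made up 49.5% ± 0.114 and 45.0% ± 0.0381. The shares and their order depended on the length used. Per kilobase of the MANE Select transcript, ATP5MC2 stood at 34.1% in OE-WT and 38.2% in CTRL. On that scale ATP5MC3 had the smallest share, 23.5% and 20.2%, and ATP5MC1 the largest, 42.3% and 41.6%.

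Summed over its members, complex IV was again the complex that differed most between groups. Its nuclear-encoded members summed to 1823 and 1912 CPM in OE-WT and 2518 and 2287 CPM in CTRL, so that the OE-WT mean was 0.777 times the CTRL mean. The ratio was 0.924 for complex I, 0.943 for complex II, 0.994 for complex III and 1.04 for complex V, and 0.985 for all members outside complex IV. With NDUFB9 left out, the complex I ratio was 0.974, and with SDHA left out, that of complex II was 1.02. Within a library, which removes the scaling between libraries, complex IV stood at 0.644 and 0.680 times complex V in OE-WT and at 0.914 and 0.857 times in CTRL. The same division by complex I gave 0.869 and 0.882 in OE-WT and 1.06 and 1.02 in CTRL. An exact permutation test of 2 libraries against 2 (two-sided) cannot go below p = 0.333, so these sums carry no test.

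**Figure D3:**
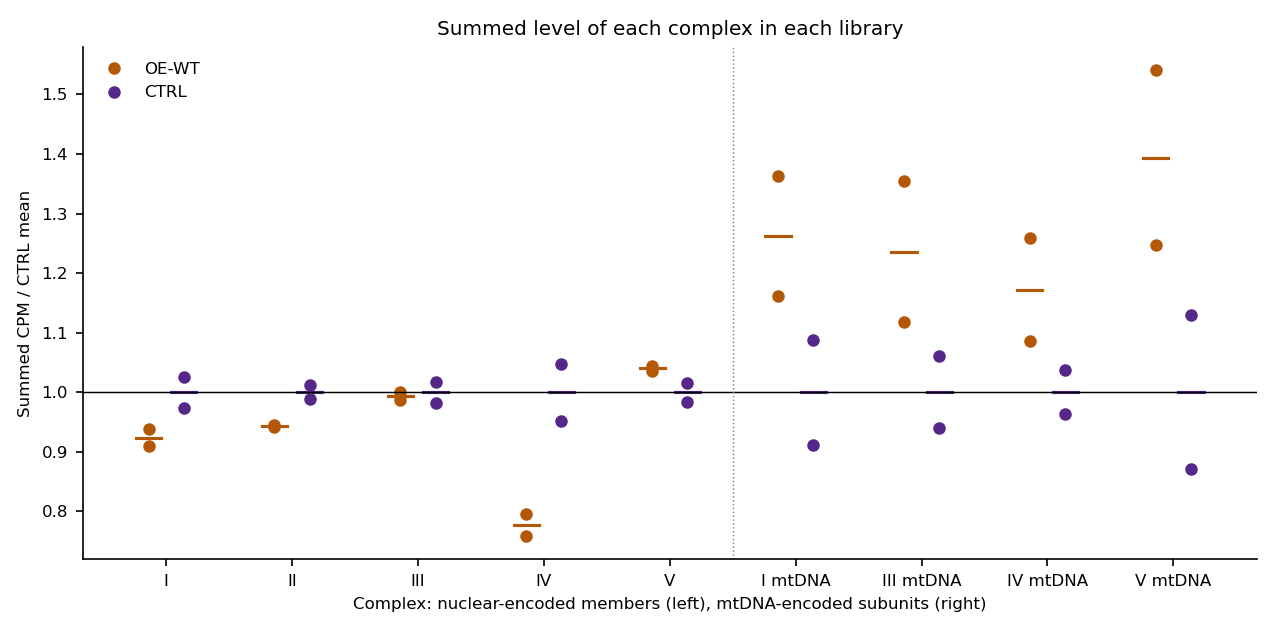
Summed CPM of each complex in each library divided by the CTRL mean (y axis), for the nuclear-encoded members on the left and the mtDNA-encoded subunits on the right; points are libraries and bars are group means. Nuclear-encoded complex IV stands at 0.777 of the CTRL mean in OE-WT, while the mtDNA-encoded subunits of complex IV stand at 1.17.

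The mtDNA-encoded subunits were higher in OE-WT, the opposite direction to the nuclear-encoded members of complex IV. Of the 13 mtDNA-encoded subunit genes, 9 rose and 0 fell, with a median log2 fold change of 0.31. MT-ATP8 and MT-ND4L each overlap a neighbouring gene of the 13, so the 13 are not all separate transcripts. MT-ATP8, a subunit of complex V, was at 526 and 449 CPM in OE-WT and 289 and 385 CPM in CTRL (log2 change 0.53 ± 0.10, adjusted p = 0.000407 by edgeR's quasi-likelihood test). MT-ND4L, a membrane subunit of complex I, was at 2073 and 1671 CPM in OE-WT and 1158 and 1454 CPM in CTRL (log2 change 0.52 ± 0.10, adjusted p = 0.000555 by edgeR's quasi-likelihood test). Neither gene overlapped between groups, but both lost the call in DESeq2 (adjusted p = 0.120 for each), and without CTRL library 1 the log2 change of MT-ATP8 was 0.34.

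Of the 3 catalytic subunits of complex IV, which mtDNA encodes, 1 rose: MT-CO2 had a log2 change of 0.26 ± 0.09, and MT-CO1 and MT-CO3, with 0.24 and 0.18, did not pass. The nuclear-encoded sum of complex IV divided by its mtDNA-encoded sum was 0.0146 and 0.0178 in OE-WT and 0.0264 and 0.0222 in CTRL. As a share of all counts, the 13 mtDNA-encoded genes came to 26.9% in OE-WT library 1 and 23.8% in OE-WT library 2. The shares for CTRL were 20.9% and 23.3%, so that OE-WT library 2 stood little above CTRL library 2.

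Most genes that assemble the complexes or serve them did not pass. Of 59 tested assembly factors 3 rose and 1 fell, with a median log2 change of 0.03. Of these, 2 that rose and the 1 that fell act on complex IV: LRPPRC, which stabilises mtDNA-encoded mRNAs, rose by 0.48 ± 0.10, COA3, which helps to make MT-CO1, by 0.31 ± 0.10, and SURF1, an early assembly factor, fell by 0.25 ± 0.07. ACAD9, a complex I assembly factor, rose by 0.34 ± 0.09. COA3 lost its call when any 1 library was left out (adjusted p 0.0521 to 0.168), ACAD9 without CTRL library 1 (0.0978) and SURF1 without OE-WT library 1 (0.0530) or CTRL library 1 (0.0886), while LRPPRC kept its call in all 15 alternatives.

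Among 17 genes for ubiquinone synthesis and electron carriers, 2 rose and 0 fell. CYCS, which encodes cytochrome c, the substrate of complex IV, was at 262 and 223 CPM in OE-WT and 173 and 180.0 CPM in CTRL, a log2 change of 0.46 ± 0.07 (adjusted p = 0.000113, edgeR's quasi-likelihood test). PDSS1, which makes the ubiquinone side chain, rose by 0.57 ± 0.16, with an adjusted p of 0.216 without OE-WT library 1. Of 16 tested genes of mitochondrial biogenesis and mtDNA expression, TFAM, the mtDNA packaging and transcription factor, rose by 0.43 ± 0.13 and POLG, the mtDNA polymerase, fell by 0.22 ± 0.08 (adjusted p = 0.0499, edgeR's quasi-likelihood test). TFAM lost the call without OE-WT library 1 (adjusted p = 0.229) or CTRL library 1 (0.0802), and POLG without any 1 library (0.0507 to 0.247).

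Of 10 genes of protein import and the matrix, 6 rose and 1 fell. The chaperonin pair HSPD1 and HSPE1 rose by 0.44 ± 0.08 and 0.31 ± 0.07, and TOMM20, the import receptor, fell by 0.25 ± 0.07 (adjusted p = 0.0139 by edgeR's quasi-likelihood test; 0.136 without OE-WT library 1 and 0.0529 without CTRL library 2). None of the 7 carriers of ADP, ATP and phosphate and outer membrane channels passed. Over all genes tested, 9.44% rose and 11.6% fell, and no list was tested as a set. Mitochondrial ribosomal protein genes, of which 77 were tested, had 9 that rose and 3 that fell, with a median of 0.07. The largest changes were those of MRPL12 at 0.59 ± 0.13 and MRPL1 at 0.47 ± 0.16 upward. Downward they were those of MRPL43 at -0.31 ± 0.07 and MRPS33 at -0.28 ± 0.08, among genes that passed. Without CTRL library 1, MRPL1, MRPL43 and MRPS33 did not pass (adjusted p 0.227, 0.0641 and 0.197), nor did MRPL1 and MRPS33 without OE-WT library 2 (0.220 and 0.0631). Among the 230 short, abundant protein-coding genes described in the next paragraph, 21.3% fell. Of 82 tested genes with cytosolic ribosomal protein symbols, 17 fell and 1 rose, with a median of -0.07. These were chosen by symbol. A further 10 tested genes of the symbol pattern, the S6 kinases and RPS19BP1, are not ribosomal proteins. They were left out after the values were seen and did not pass. The 82 kept hold RPL7L1, which is named as a relative of RPL7 and was the only 1 of them that rose. Those with the largest changes were RPS21 at -0.36 ± 0.07, RPS7 at -0.30 ± 0.07 and, upward, RPL7L1 at 0.23 ± 0.07, which lost its call without OE-WT library 1 or 2 (adjusted p 0.0663 and 0.0627) or CTRL library 1 (0.345).

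Members that fell were also compared with the others by length and base composition. Their MANE Select transcripts had a median length of 660 bases and their exons a median GC content of 44.7%, against 995 bases and 47.5% for the tested members that did not fall. Abundant genes passed the test more often than genes at large: of 2659 other protein-coding genes with a mean of at least 50 CPM, 21.9% fell and 19.8% rose, beside 17.9% and 5.13% of the tested members. Among those that were also short the split leaned downward: of 230 protein-coding genes with a MANE Select transcript under 1000 bases and a mean of at least 50 CPM, 21.3% fell and 8.70% rose, with a median log2 change of -0.04. Within these limits of length and level, which were set after the values were seen, 7 of 7 complex IV members fell, with a median of -0.44, and 3 of 27 members of the other complexes fell (11.1%), with a median of -0.03. The length limit left out every tested complex IV member that did not fall: COX5A, COX7A2L and COX7B, with 1173, 2282 and 2444 bases. It also left out NDUFA4, with 2035 bases, which fell. With the trend on MANE Select length removed from the counts, an alternative chosen after seeing the data, 8 complex IV members and 4 others fell. With the trend on GC content removed, 8 complex IV members and 11 others fell, against 6 others as reported.

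Of the 14 members that fell, NDUFB9 and COX6C lie on chromosome 8, as do CYC1 and UQCRB, which did not pass. Over all 470 genes tested on chromosome 8, 14.5% fell, with a median log2 change of -0.06. The remaining members that fell lie on 9 other chromosomes.

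**Figure D4:**
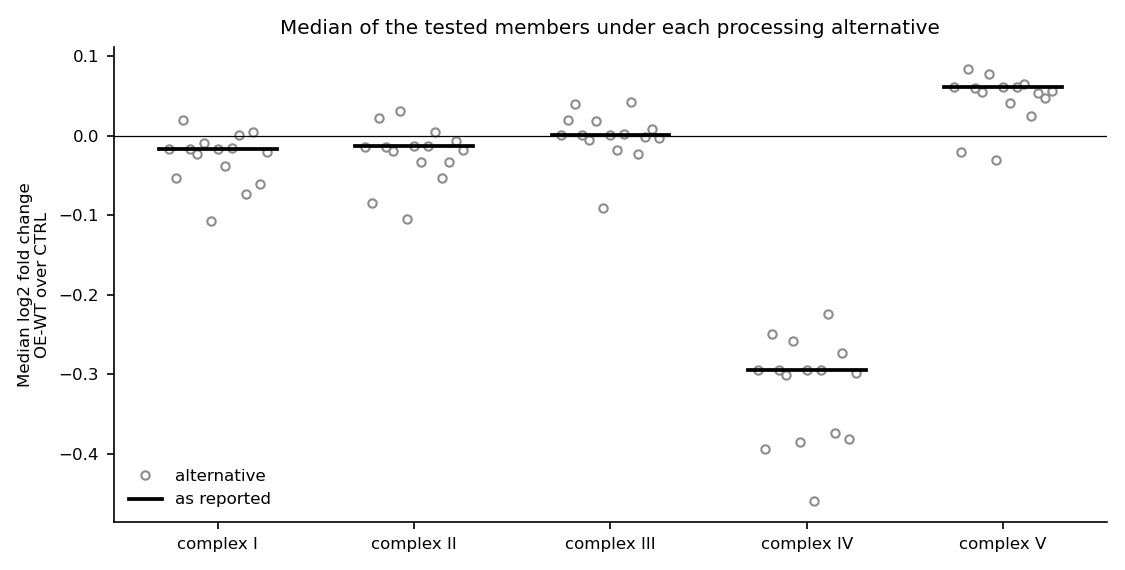
Median log2 fold change of the tested members of each complex (y axis), with the reported value as a black bar and the 15 processing alternatives as open circles. Complex IV lies between -0.46 and -0.22 in each of the 15, and the other complexes lie between -0.11 and 0.08.

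Some members share sequence with other genes, which limits how their reads could be assigned. The table also held 171 pseudogenes with symbols of the same pattern, and for 41 of the 44 parent genes among the members their counts came to at most 0.430% of the parent's. The exceptions were COX6A1, whose pseudogenes carried 3.16% as many counts as the gene, UQCRFS1, with 3.99%, and NDUFV2, whose pseudogene had more counts than the gene. On the same strand, exons of another listed gene covered 32.6% of the MANE Select transcript of COX6A1, 35.4% of COX8A and 63.8% of ATP5PO. Among tested members that did not pass, they covered 72.0% of NDUFB8, 68.2% of NDUFA11 and 37.25% of ATP5MF. For NDUFB9 the overlap was 0% on the same strand and 23.9% with both strands taken. NDUFA13, NDUFA7 and NDUFV2, covered to 83.9%, 77.9% and 90.0% on the same strand, had no more than 14 counts in any library and were not tested. Beside these 3, the untested members were the paralogs COX6A2, COX6B2, COX7A1, COX7B2, COX8C and NDUFA4L2, the read-through gene NDUFC2-KCTD14 and ATP5MGL, each with at most 10 counts.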

How the data were processed

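RNA sequencing reads of DLD1 cells were processed by the authors with Cutadapt, HISAT2 (GRCh38) and HTSeq, and the deposited values are raw counts per gene. The submitters' processing notes name HISAT2 2.2.1, featureCounts 2.0.0 and DESeq2 1.34.0 instead, and the labels name poly(A) selection where the methods name rRNA removal. The labels list 2 lanes per library, which the table holds as 1 column. The methods state 3 biological replicates, while the labels and the count table hold 2 libraries per group, all of which were analysed here. Libraries held 10327498 to 12379671 counts. A count of 0 allows up to 3 counts, 0.233 to 0.302 CPM by library, for counting error only.

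Symbols came from GENCODE 44 (57532 identifiers matched). Counts were tested with edgeR 4.0.16 in R 4.3.3: default filter by group (minimum count 10), TMM scaling, quasi-likelihood test without a replicate block, and Benjamini-Hochberg adjustment over 14133 genes. The standard error of a log2 fold change was its absolute value over the root of the F statistic, and 95% intervals assume a normal distribution. CPM use TMM-scaled library sizes. The scripts were tested on simulated data. Alternatives were RLE factors, library size alone, removal of mtDNA-encoded genes, DESeq2 1.42.0, the likelihood ratio test, other filters, a replicate block, each library left out, and lowess trends (span 0.3) on GC content or length removed.

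The members and lists were chosen with earlier results of these data known. Named genes are TRMT6, TRMT61A, members with an adjusted p below 0.05, the extremes of each complex, paralog pairs, all SDH genes, and up to 2 genes per direction of each related list. COX5A, COX7A2L, UQCRB, UQCRFS1, NDUFB8, NDUFA11, ATP5MF, ATP5F1B, MT-CO1, MT-CO2, MT-CO3, the untested members and the markers at 0 were named after their values were seen. The sources used here do not give whether counting used strand. A result on a set of complex I subunits is not reported here.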

Additional observations from a re-analysis of the deposited data

How the results depend on the processing

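Of the 18 members that passed the test, all 18 kept their direction in the 15 alternatives, and 7 also kept an adjusted p below 0.05 in every one: COX5B, COX6A1, COX6C, COX7A2, COX8A, NDUFB9 and SDHA. Complex IV members that fell numbered 7 or 8 in every alternative except without CTRL library 1. The cause of the changes that follow was not tested, and fewer libraries were fitted when one was left out.

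The 9 members that lost the call in DESeq2 were ATP5F1D, ATP5MC2, ATP5PB, ATP5PO, COX6B1, NDUFA10, NDUFB4, NDUFS4 and UQCRC2 (adjusted p 0.0720 to 0.236). Removing the GC trend moved the log2 change of NDUFA4 to -0.45, COX8A to -0.25 and TOMM20 to -0.37, which kept the call, and of SURF1 to -0.14, TFAM to 0.27, POLG to -0.15 and MRPL43 to -0.19, which lost it (adjusted p 0.0580 to 0.210). Library sizes alone moved RPL7L1 to 0.14 and ended its call, and also those of HSPE1, TFAM, ACAD9, COA3 and MRPL1 (adjusted p 0.0502 to 0.245). Without a low-count filter the calls of ATP5PB, ATP5PO, NDUFS4 and UQCRC2 were lost (adjusted p 0.0701 to 0.131), and with the MANE Select length trend removed those of ATP5PO (0.0715) and NDUFS4 (0.0632). DESeq2 called 1377 genes in all and 288 past the study thresholds, with 9 members lower and 0 higher. Without a low-count filter 738 genes passed the study thresholds, 2 members rose, and the complex IV median, which then takes in near-empty paralogs, was -0.46. With at least 10 counts in every library 216 genes passed the study thresholds. Library sizes alone gave 0 members higher, medians of -0.11 over all members, -0.11 for complex I, -0.11 for II, -0.091 for III and -0.030 for V, and summed ratios of 0.867 for complex I, 0.885 for II, 0.933 for III and 0.976 for V. Removing the GC trend moved the medians of complexes II and V to -0.085 and -0.021, and removing the MANE Select length trend moved that of complex III to 0.040. Without its most abundant member the summed ratio was 0.974 for complex I and 1.02 for complex II. With 1 library left out, 1923 to 2721 genes were called, 8 to 16 members fell, 1 to 3 rose, 5 to 8 complex IV members fell, and the complex III median ran from -0.023 to 0.043.

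Some genes that did not pass changed direction: ATP5MC3 (-0.018) and CYC1 (0.042) with the GC trend removed, COX7B with library sizes alone (-0.024) or with the GC trend removed (-0.046), SDHC with library sizes alone (-0.021), and SDHB and SDHD with the trend on exon length (0.031 and 0.030) or on MANE Select length (0.024 and 0.022) removed. With 1 library left out, their log2 changes ran from -0.023 to 0.17 for COX7B, -0.084 to 0.066 for SDHB, -0.023 to 0.17 for SDHC and -0.078 to 0.035 for SDHD.

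The replicate numbers in the column names did not pair the libraries: deviations of same-numbered libraries from their group means correlated at -0.068. With a replicate block, ATP5PB, ATP5PO and UQCRC2 lost the call (adjusted p 0.0686 to 0.109), 13 members fell and 2 rose, 8 of the 13 in complex IV, and 2658 genes were called. At this depth, members with a few counts per library could not be tested.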
